A study of Mus musculus with 4 samples.

Results

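Actin is the protein that B cells assemble into filaments beneath the membrane, and its turnover depends on a small set of abundant partner proteins. The mRNA levels of 10 genes of this machinery, *Actb*, *Actg1*, *Pfn1*, *Tmsb4x*, *Tmsb10*, *Cfl1*, *Arpc2*, *Arpc3*, *Coro1a* and *Lcp1*, were examined in splenic B cells with and without NSD1, an enzyme that methylates histone H3 at lysine 36. The genes were taken by symbol, and all 10 were found once each among the 55401 gene identifiers counted and were among the 11657 genes tested. B220+ B cells were sorted from the spleens of C57BL/6J mice and their RNA was sequenced in 4 libraries. The 2 NSD1B WT libraries came from Mb1-Cre+ NSD1+/+ mice, which were littermate controls, and the 2 NSD1B KO libraries from Mb1-Cre+ NSD1fl/fl mice. Both genotypes therefore carried Mb1-Cre (CD79a-Cre), a recombinase driven in the B lineage, and they differed in the floxed alleles, in which loxP sites flank exons 6 to 8 of NSD1. Mice of 7 to 9 weeks and of both sexes were used in the experiments in general, and the sources used here do not give the age and sex behind each library. It is also not stated there if replicate libraries came from separate mice, so every p-value below measures the spread between libraries, which may be technical.

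An actin filament grows by addition of actin monomers at one end and loses them from the other. *Actb* and *Actg1* encode the beta and gamma actin monomers of non-muscle cells. Profilin (*Pfn1*) loads monomers for addition to filaments, the beta-thymosins (*Tmsb4x* and *Tmsb10*) hold monomers in reserve, and cofilin (*Cfl1*) severs old filaments. The Arp2/3 complex, of which *Arpc2* and *Arpc3* encode subunits, starts new branches, coronin 1A (*Coro1a*) binds filaments and the Arp2/3 complex in blood cells, and L-plastin (*Lcp1*) bundles filaments in leukocytes. In B cells the actin network is known to restrain the movement of the B cell receptor at rest and to be rebuilt when antigen is met.

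The members include a pair of actins and a pair of beta-thymosins, and the sequences show how far reads from each pair can be told apart. Both actin coding sequences are 1128 nt long and identical at 1000 positions (88.7%). The first 90 coding bases, from the GENCODE M21 transcripts, are given with the 16 positions that differ in capitals.
Actb: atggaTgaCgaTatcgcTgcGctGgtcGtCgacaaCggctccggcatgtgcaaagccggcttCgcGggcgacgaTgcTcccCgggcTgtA
Actg1: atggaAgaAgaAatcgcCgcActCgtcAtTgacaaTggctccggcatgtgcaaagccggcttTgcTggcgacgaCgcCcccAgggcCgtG
The longest run of bases that the principal *Actb* and *Actg1* transcripts share is 62 nt, and it is 10 nt for the beta-thymosins. Both beta-thymosin coding sequences are 135 nt long and identical at 95 positions (70.4%), and they are given whole with the 40 differing positions in capitals.
Tmsb4x: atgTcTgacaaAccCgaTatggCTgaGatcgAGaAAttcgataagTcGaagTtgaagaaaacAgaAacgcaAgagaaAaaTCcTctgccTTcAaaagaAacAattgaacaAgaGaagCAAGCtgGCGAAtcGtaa
Tmsb10: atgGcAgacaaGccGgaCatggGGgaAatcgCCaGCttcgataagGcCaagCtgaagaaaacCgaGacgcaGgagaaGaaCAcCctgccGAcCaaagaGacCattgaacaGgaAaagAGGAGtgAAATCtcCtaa

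Some members share sequence with pseudogenes, other copies or genes that overlap them on the opposite strand. Of the 100-nt windows of the principal transcript, 51.1% in *Actg1* also occurred in transcripts of other genes, all 6 of them processed pseudogenes. The share was 21.5% in *Tmsb10* and 1.10% in *Actb*. It was 12.4% in *Cfl1* and 6.28% in *Lcp1*, mostly with the opposite-strand genes *Snx32* and *Gm15628* at the same loci, and it was 0 in *Pfn1*, *Tmsb4x*, *Arpc2*, *Arpc3* and *Coro1a*. The values of *Actg1* and *Tmsb10* are therefore uncertain to the extent that reads on shared windows were dropped or counted on a copy. The 6 *Actg1* pseudogenes together had 178 and 221 counts in NSD1B WT and 54 and 121 in NSD1B KO, against 1747 to 2658 on *Actg1* itself. *Gm9844*, a copy that shares windows with *Tmsb10*, had 1686 and 1598 counts in NSD1B WT and 736 and 1012 in NSD1B KO. *Cfl1* overlaps exons of *Snx32* on the opposite strand over 468 nt, *Coro1a* overlaps *Bola2* over 26 nt, and *Lcp1* overlaps the antisense genes *Gm15628* over 311 nt and *Gm15629* over 219 nt. Whether the counting used strand is not given in the sources used here, and counts of *Snx32* were 519 and 586 in NSD1B WT and 390 and 358 in NSD1B KO.

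Among the counted reads, those without a unique place were 11.2% and 12.1% in NSD1B WT and 12.7% and 13.2% in NSD1B KO, and the part of this difference in the *Actg1* and *Tmsb10* results was not tested. Mitochondrial genes held 7.14% and 7.90% of counts on genes against 8.98% and 9.27%.

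The libraries held between 6769118 and 7566834 counts on genes, and the members had from 1043 to 117764 counts in a library. Levels are given as CPM (counts scaled to a fixed library total) after TMM scaling, a scaling that sets aside the genes that differ most between libraries. By the test described next, 80.0% of tested genes passed the limit on adjusted p. The calls of *Arpc3* and *Pfn1* depended on the scaling, as given below. Differences were tested across all genes with edgeR's quasi-likelihood test and Benjamini-Hochberg adjustment, and a gene was called higher or lower where the adjusted p was below 0.05 and the fold above 1.2. As a check of the labels, *Nsd1* had 497 and 480 counts in NSD1B WT and 284 and 280 in NSD1B KO. Its level fell by 0.74 on the log2 scale (SE 0.11, adjusted p = 8.08e-08), with counts taken over the whole gene and not over the floxed exons. This is a weak check, since 41.1% of all tested genes were called lower and their median change without sign was 1.16 over all tested genes.

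In NSD1B KO, 7 of the 10 members were lower (*Actb*, *Actg1*, *Tmsb10*, *Cfl1*, *Arpc2*, *Coro1a* and *Lcp1*), 2 were higher (*Tmsb4x* and *Arpc3*), and *Pfn1* was not called. Among all tested genes 41.1% were called lower and 37.1% higher. Among the 901 genes at least as highly expressed as the lowest member, 28.3% were called lower and 35.7% higher. By adjusted p alone, all 10 members passed, 8 of them lower, against 80.0% of all tested genes in either direction. The values of the genotypes did not overlap in any of the 10 members, which was also so for 88.1% of tested genes. The median log2 fold change was -0.52 over the members, -0.10 over all tested genes and 0.07 over the 901 genes of similar or higher level. The median size of the change without its sign was 0.59 over the members, 1.16 over all tested genes and 0.37 over the 901. In bulk RNA, fewer cells of a type and less RNA per cell cannot be told apart.

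**Figure D1:**
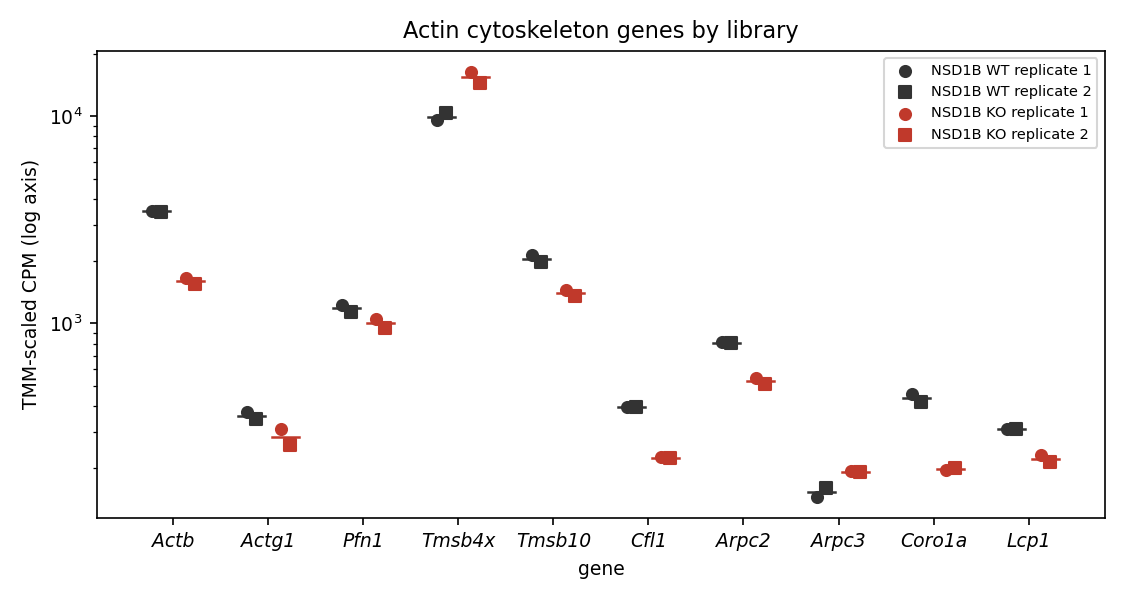
TMM-scaled CPM on a log axis for each of the 10 genes in each of the 4 libraries. Black marks are NSD1B WT and red marks NSD1B KO, circles are replicate 1 and squares replicate 2, and each line is the mean of 2 libraries. *Tmsb4x* stands above the other genes in every library, and *Tmsb4x* and *Arpc3* are the genes whose red marks lie above the black ones.

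Among the actins, *Actb* (ENSMUSG00000029580.14, minus strand, chr5:142903115-142906754 in mm10) had 25036 and 25332 counts in NSD1B WT and 11888 and 10423 in NSD1B KO. Scaled to depth these were 3504 and 3465 CPM against 1652 and 1549 CPM. Both NSD1B KO libraries thus lay at less than the level of either NSD1B WT library, and the replicates of a genotype lay close together. The mean level was 3484 ± 27.1 CPM in NSD1B WT and 1601 ± 72.7 CPM in NSD1B KO (SD, n = 2 each), a 2.18-fold lower level. The log2 fold change was -1.12 (SE 0.08, 95% interval -1.27 to -0.97, adjusted p = 2.80e-18 by edgeR's quasi-likelihood test). Among the 901 genes of similar or higher level, ordered by log2 fold change, *Actb* ranked 24 from the bottom.

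*Actg1* (ENSMUSG00000062825.15, minus strand, chr11:120345690-120348542), the second non-muscle actin, had 2658 and 2518 counts in NSD1B WT and 2220 and 1747 in NSD1B KO. Its level was 372 and 344 CPM against 309 and 260 CPM, and the NSD1B KO libraries differed from each other by 0.25 on the log2 scale, the widest gap between replicates among the members. The log2 fold change of -0.33 (SE 0.08, 95% interval -0.50 to -0.17, adjusted p = 0.000331 by edgeR's quasi-likelihood test) corresponded to a 1.26-fold lower level. This call rested on both genotypes' libraries. The estimate was -0.21 without NSD1B KO replicate 2 and -0.25 without NSD1B WT replicate 1, both within the fold of 1.2, and -0.20 once a loess trend on length and GC was taken out.

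The ratio of *Actb* to *Actg1*, as counts per kb of exon, was 9.35 and 9.98 in the NSD1B WT libraries and 5.31 and 5.92 in the NSD1B KO libraries. The mean log2 ratio was 0.78 below that of NSD1B WT, at 2.49 ± 0.11 against 3.27 ± 0.07 (SD, n = 2 each). Since a ratio is formed within a library, no scaling between libraries enters it. *Actb* remained the more abundant actin in every library. The ratios are given as values with no test, and an exact permutation test of 2 libraries against 2 could not give a p below 0.333.

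The genes whose products bind actin monomers moved in both directions. *Tmsb4x* (ENSMUSG00000049775.16, minus strand, chrX:167207093-167209315), which encodes thymosin beta-4, had 68283 and 75440 counts in NSD1B WT and 117764 and 97272 in NSD1B KO. These were 9556 and 10320 CPM against 16366 and 14459 CPM, so that the lowest NSD1B KO library lay well above the highest NSD1B WT library. The mean rose from 9938 ± 540.2 CPM to 15413 ± 1348 CPM (SD, n = 2 each), a 1.55-fold higher level, with a log2 fold change of 0.63 (SE 0.08, 95% interval 0.47 to 0.79, adjusted p = 6.59e-10 by edgeR's quasi-likelihood test). With scaling on *Hprt* the log2 fold change was 0.31. By its mean level *Tmsb4x* ranked 6 among all tested genes. It lies on the X chromosome, and *Xist*, the RNA of the inactive X, had 47 and 62 counts in NSD1B WT and 1 and 2 in NSD1B KO. Of the Y genes listed, *Ddx3y* (624, 641, 914 and 875 counts), *Kdm5d* and *Uty* were higher and *Eif2s3y* was lower. The part of the mice's sex in the *Tmsb4x* result was not tested.

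*Tmsb10* (ENSMUSG00000079523.8, minus strand, chr6:72957347-72958748), which encodes the related thymosin beta-10, moved the other way. It had 15292 and 14452 counts in NSD1B WT and 10400 and 9162 in NSD1B KO, or 2140 and 1977 CPM against 1445 and 1362 CPM. The mean level was 1.47-fold lower in NSD1B KO, with a log2 fold change of -0.55 (SE 0.08, 95% interval -0.71 to -0.40, adjusted p = 7.23e-09 by edgeR's quasi-likelihood test). Its copy *Gm9844* was counted at lower levels in NSD1B KO as well. After removal of a trend with length and GC content the *Tmsb10* estimate was -0.18, within the fold of 1.2.

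Thus the beta-thymosins, whose coding sequences are given above, changed in opposite directions. The ratio of *Tmsb4x* to *Tmsb10* per kb of exon was 4.16 and 4.86 in NSD1B WT and 10.5 and 9.88 in NSD1B KO. On the log2 scale this was 2.17 ± 0.16 against 3.35 ± 0.07 (SD, n = 2 each), a difference of 1.18, the widest of the 3 pairs compared.

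*Pfn1* (ENSMUSG00000018293.4, minus strand, chr11:70651850-70654644), which encodes profilin 1, had 8791 and 8286 counts in NSD1B WT and 7564 and 6385 in NSD1B KO. The levels were 1230 and 1133 CPM against 1051 and 949 CPM, which do not overlap but leave a gap of only 0.11 on the log2 scale, the narrowest among the members. Its log2 fold change of -0.24 (SE 0.08, 95% interval -0.40 to -0.09, adjusted p = 0.00429 by edgeR's quasi-likelihood test) was past the limit on p, and its fold of 1.18 was under that of 1.2. The direction depended on the processing, since the estimate was 0.14 after removal of the trend with length and GC content and -0.57 with scaling on *Hprt*. *Pfn1* was called lower without NSD1B WT replicate 2 (-0.28) and without NSD1B KO replicate 1 (-0.32).

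*Cfl1* (ENSMUSG00000056201.8, plus strand, chr19:5490455-5495201), which encodes the severing protein cofilin 1, had 2818 and 2903 counts in NSD1B WT and 1633 and 1505 in NSD1B KO. The replicates were nearly equal, at 394 and 397 CPM against 227 and 224 CPM. The mean level was 1.76-fold lower in NSD1B KO (log2 fold change -0.81, SE 0.08, 95% interval -0.97 to -0.65, adjusted p = 6.07e-13 by edgeR's quasi-likelihood test). *Cfl1* was called lower under each of the 17 alternatives tried, with estimates from -1.14 to -0.74.

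**Figure D2:**
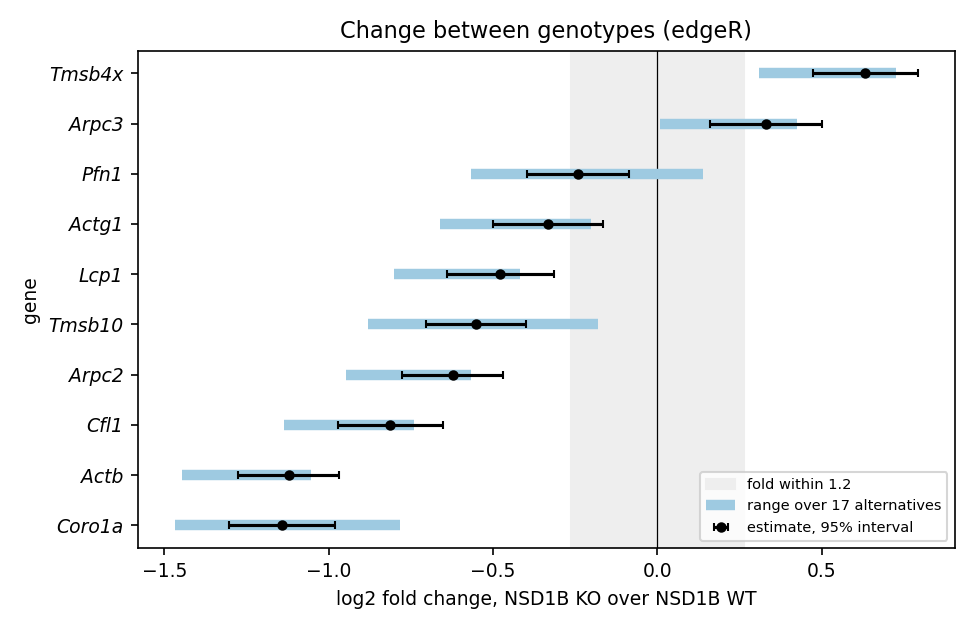
Log2 fold change of each gene, NSD1B KO over NSD1B WT, from edgeR. Points are estimates with 95% intervals, blue bars span the estimates under the 17 alternatives, and the grey band marks folds within 1.2. *Coro1a* and *Actb* lie farthest to the left, near -1.1, *Tmsb4x* and *Arpc3* lie to the right of 0, and the bar of *Pfn1* crosses 0.

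The Arp2/3 complex is built of several subunits, and the 2 members that encode such subunits moved apart. *Arpc2* (ENSMUSG00000006304.14, plus strand, chr1:74236084-74268209) had 5791 and 5907 counts in NSD1B WT and 3913 and 3415 in NSD1B KO, or 810 and 808 CPM against 544 and 508 CPM. This was a 1.54-fold lower level with a log2 fold change of -0.62 (SE 0.08, 95% interval -0.78 to -0.47, adjusted p = 4.47e-10 by edgeR's quasi-likelihood test). The NSD1B WT libraries of *Arpc2* differed by 0.0042 on the log2 scale, the narrowest gap between replicates among the members.

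*Arpc3* (ENSMUSG00000029465.14, plus strand, chr5:122391878-122414184), in contrast, had 1043 and 1175 counts in NSD1B WT and 1395 and 1290 in NSD1B KO. It was the member of lowest CPM, ranking 901 among tested genes, at 146 and 161 CPM against 194 and 192 CPM. The level was 1.26-fold higher in NSD1B KO (log2 fold change 0.33, SE 0.08, 95% interval 0.16 to 0.50, adjusted p = 0.000455 by edgeR's quasi-likelihood test). With scaling on *Hprt* the estimate was 0.01 (adjusted p = 0.934), and with library size alone it was 0.25.

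Within each library the ratio of *Arpc2* to *Arpc3* per kb of exon was 7.54 and 6.83 in NSD1B WT and 3.81 and 3.60 in NSD1B KO. The mean log2 ratio was 2.84 ± 0.10 and 1.89 ± 0.06 (SD, n = 2 each), and it fell by 0.96. The other Arp2/3 genes listed were 7, of which *Arpc1b* (-1.02), *Arpc5* (-0.53), *Actr3* (-0.50) and *Actr2* (-0.29) were lower by log2 fold change and none was higher. *Arpc1a* (0.22), *Arpc4* (-0.18) and *Arpc5l* (0.20) were not called. *Arpc3* was thus the gene called higher among the 9 Arp2/3 genes counted, next to 5 called lower.

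*Coro1a* (ENSMUSG00000030707.15, minus strand, chr7:126699773-126707787) showed the lowest log2 fold change among the members. It had 3247 and 3063 counts in NSD1B WT and 1408 and 1346 in NSD1B KO, or 454 and 419 CPM against 196 and 200.1 CPM. The level of this filament-binding protein's mRNA was 2.21-fold lower, with a log2 fold change of -1.14 (SE 0.08, 95% interval -1.30 to -0.98, adjusted p = 1.48e-17 by edgeR's quasi-likelihood test). It ranked 20 from the bottom among the 901 genes of similar or higher level. Its interval and that of *Actb* covered each other's estimates.

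*Lcp1* (ENSMUSG00000021998.16, plus strand, chr14:75131101-75230842), the bundling protein gene, had 2213 and 2273 counts in NSD1B WT and 1666 and 1440 in NSD1B KO. These were 310 and 311 CPM against 232 and 214 CPM, a 1.39-fold lower level (log2 fold change -0.48, SE 0.08, 95% interval -0.64 to -0.32, adjusted p = 6.50e-07 by edgeR's quasi-likelihood test). *Gm15629*, one of the antisense genes that overlap it, had between 16 and 21 counts in a library and *Gm15628* had 0.

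Per kb of exon, the order of the members' levels began with *Tmsb4x*, *Tmsb10*, *Actb*, *Pfn1* and *Arpc2* in both genotypes. In NSD1B WT these had 7249, 1613, 1301, 491 and 398 CPM per kb, and in NSD1B KO 11242, 1100.0, 598, 416 and 259 CPM per kb. The next places changed hands. In NSD1B WT *Coro1a* (157 CPM per kb) was followed by *Cfl1* (139) and *Actg1* (135), whose libraries overlapped. In NSD1B KO *Actg1* (107 CPM per kb) was followed by *Cfl1* (79.2) and *Coro1a* (71.1), and *Coro1a* lay above *Arpc3* (69.8) by less than the sum of their SDs. *Arpc3* and *Lcp1* were last in both genotypes, at 55.5 and 32.7 CPM per kb in NSD1B WT and 69.8 and 23.4 in NSD1B KO. Exon length was that of all annotated exons of a gene merged, which is 9504 nt for *Lcp1* and 1276 nt for *Tmsb10*, and levels per kb depend on it.

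Although 7 of the members were lower, the 10 genes together held a similar share of all counts on genes in each library. The share was 1.94% and 1.98% in NSD1B WT and 2.11% and 1.98% in NSD1B KO. The makeup of that share differed. *Tmsb4x* made up 50.5% and 53.4% of the members' counts in NSD1B WT and 73.7% and 72.6% in NSD1B KO, and *Actb* made up 18.5% and 17.9% against 7.44% and 7.78%. Without *Tmsb4x*, the other 9 genes held 0.962% and 0.924% of all counts on genes in NSD1B WT and 0.556% and 0.542% in NSD1B KO.

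**Figure D3:**
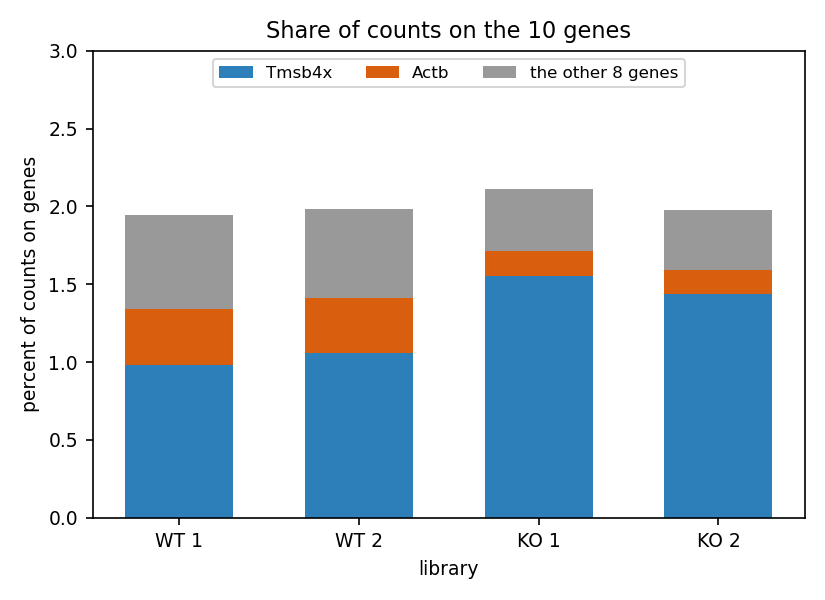
Percent of all counts on genes held by *Tmsb4x* (blue), *Actb* (orange) and the other 8 genes (grey), stacked for each of the 4 libraries. The stacks reach 1.94% to 2.11%, while the *Tmsb4x* layer grows from 0.982% and 1.06% in NSD1B WT to 1.56% and 1.44% in NSD1B KO and the *Actb* layer shrinks from 0.360% and 0.355% to 0.157% and 0.154%.

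**Figure D4:**
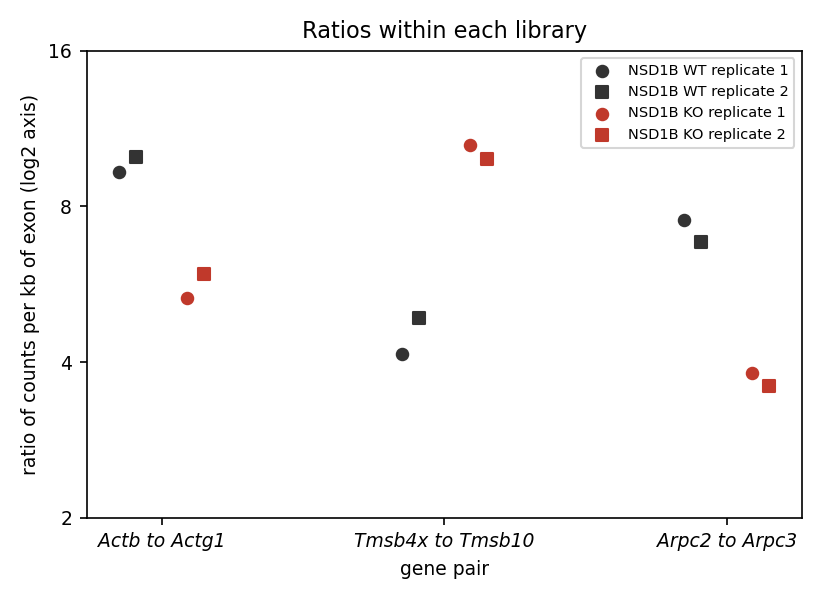
Ratio of counts per kb of exon within each library for 3 pairs of genes, on a log2 axis. Black marks are NSD1B WT and red marks NSD1B KO, circles are replicate 1 and squares replicate 2. The red marks lie below the black ones for *Actb* to *Actg1* and *Arpc2* to *Arpc3*, and above them for *Tmsb4x* to *Tmsb10*.

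Actin genes are known targets of serum response factor, which binds the CArG box and is switched on through the cofactor MRTF when free actin monomer is scarce. RefSeq promoter windows (GRCm38.p6) were found for 9 members, 13 windows in all, and the *Actb* promoter was not analysed here. In these windows the 250 bases before each start were searched on both strands. The CArG box occurred in 1 of the 13 windows, that of *Actg1*, and in 1.48% of 32536 promoter windows of the genome. TATAAA occurred in 0 of the 13 and in 12.3% of all windows. The *Actg1* site starts 90 bases before the start of transcription and reads as a CArG box on both strands. It is shown in capitals in the stretch chr11:120348556-120348605, minus strand, because *Actg1* is one of the actin genes tested.
Actg1 promoter: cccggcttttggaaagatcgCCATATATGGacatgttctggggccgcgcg
Among the 3 genes listed for this transcription, *Mrtfa* had 349 and 318 counts in NSD1B WT and 0 in both NSD1B KO libraries, an at least 214-fold lower level when 3 counts over both libraries are taken as the limit. *Mrtfb* had 73 and 77 counts against 8 and 14 (log2 fold change -2.70), and *Srf* had 0 in both NSD1B WT libraries and 19 and 30 counts in NSD1B KO, at least 17.1-fold higher. A level of 0 in a genotype was not particular to *Mrtfa* and *Srf*. It occurred in 13 of 105 tested genes of the wider list described next, which includes them, and the share over all tested genes is not given here.

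A wider list of 136 other actin cytoskeleton genes was set against the members. Of the 105 that were tested, 30 were higher, 49 were lower and 26 were not called in NSD1B KO. Among all tested genes 37.1% were higher and 41.1% lower, and the counts by role below stand beside the same shares. The median log2 fold change of the 105 genes was -0.25. This median was the same with the 13 genes at 0 in a genotype set to their limits. At the level of the lowest member or above there were 24 of these genes. Among them 3 were higher (*Gmfg*, *Tpm4* and *Msn*), 9 were lower and 12 were not called, with a median of -0.03. Lower calls were thus 9 of 24 in the wider list at such levels beside 7 of 10 in the members, and this difference was not tested. Of all 901 genes at such levels, 28.3% were lower and 35.7% higher.

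Of 7 tested genes for monomer binding and turnover, 2 were higher and 3 lower. *Gmfg*, which encodes a debranching factor of blood cells, was higher (log2 fold change 0.55), but it was not called with scaling on *Hprt* (0.22). *Wdr1*, whose product helps cofilin to take filaments apart, fell from 204 to 14.6 CPM (log2 fold change -3.80). Both *Cfl1* and its partner *Wdr1* were therefore lower in NSD1B KO. Among 4 other actin genes listed 1 was tested, the smooth muscle actin gene *Acta2*, with 30 and 25 counts in NSD1B WT and 0 in both NSD1B KO libraries, at least 17.7-fold lower.

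Activators of the Arp2/3 complex were split, with 4 of 11 higher and 5 lower. *Brk1*, a small subunit of the WAVE complex, had a log2 fold change of 0.06 and was not called, while *Cyfip2*, another subunit, rose by 1.73 on the log2 scale. Formins and Ena/VASP genes, whose products lengthen unbranched filaments, were higher in 2 of 9 and lower in 5. *Fmnl1* was lower (-0.30, adjusted p = 0.034 by edgeR's quasi-likelihood test) and *Evl* was higher (1.37) by log2 fold change. The *Fmnl1* call was lost without any 1 of 3 of the libraries, with estimates from -0.29 to -0.08 there, and under DESeq2 and limma-voom, and the estimate was 0.06 with the trend of length and GC content removed.

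Capping and severing genes were higher in 2 of 9 and lower in 3, and those of the other coronins were higher in 2 of 5 and lower in 2. *Capza2*, a capping protein subunit, had a log2 fold change of 0.21 and was not called, except without NSD1B KO replicate 2 (0.264), and *Add1*, which encodes a capping adducin, was lower at -0.54. *Coro1b*, the coronin gene of highest level after *Coro1a*, was higher at 0.61, opposite to *Coro1a*. With scaling on *Hprt* the *Coro1b* estimate was 0.29 and was not called. Cross-linking and bundling genes were higher in 4 of 12 and lower in 5. *Tagln2* was not called (0.12), and *Flna*, which encodes the cross-linker filamin A, was lower at -1.03, the same direction as *Lcp1*.

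Genes that tie filaments to the membrane were higher in 3 of 6 and lower in 2, and myosin genes were higher in 3 of 11 and lower in 6. *Msn*, which encodes moesin, and *Tln1*, which encodes talin 1, rose by 0.79 and 0.997 on the log2 scale. *Myl6*, a myosin light chain, had a log2 fold change of 0.03 and was not called, and *Myo1c* was lower at -1.75.

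**Figure D5:**
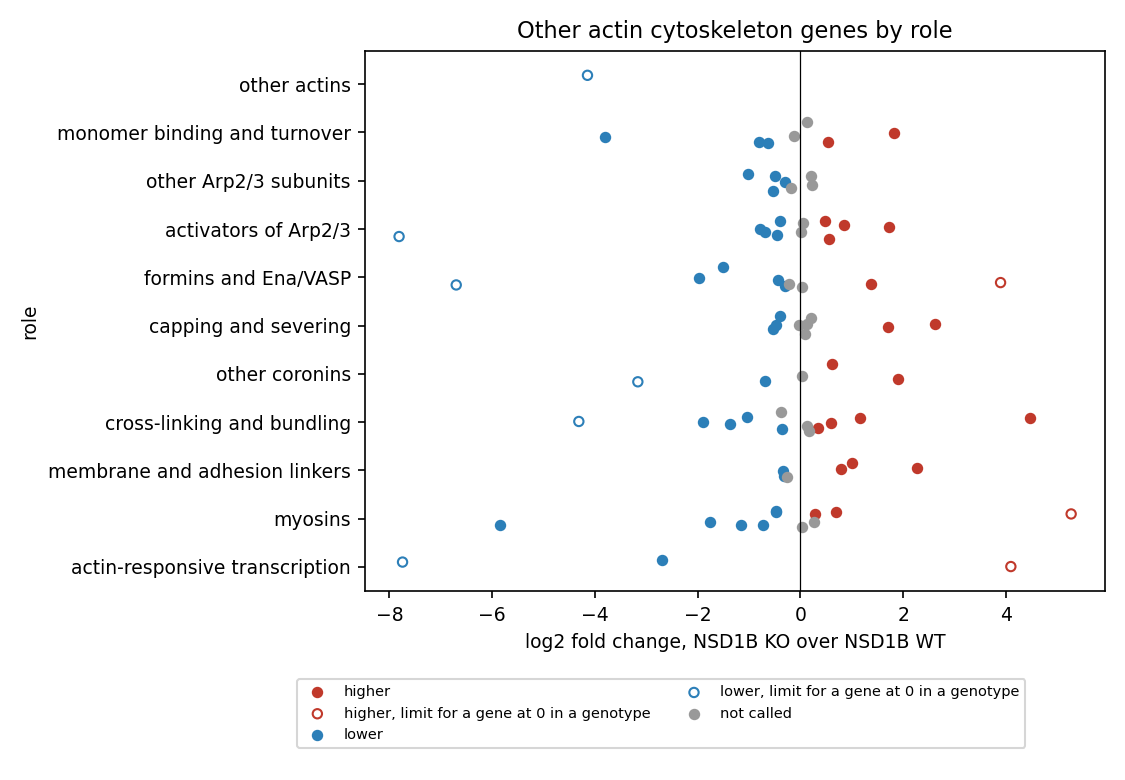
Log2 fold change, NSD1B KO over NSD1B WT, of 81 other actin cytoskeleton genes in 11 roles. Each point is a gene, red if called higher (23), blue if called lower (38) and grey if not called (20), and open points are limits for the 9 genes at 0 in a genotype. No role has red points alone, and the other Arp2/3 subunits have blue and grey points but no red one.

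Some lists of marker genes moved with genotype as well. B cell markers were present in all libraries, with none of 10 at 0, 1 higher, 7 lower and 2 not called. Their summed level was 13219 to 13457 CPM in NSD1B WT and 11558 to 12566 CPM in NSD1B KO. Most of this sum was *Cd79b* (means of 6825 and 8159 CPM, not called). Single markers fell by more than the sum, among them *Cd79a* (means of 1988 and 789 CPM) and *Pax5* (42.9 and 4.39 CPM). Erythroid genes were higher in 5 of 7, with 2 at 0, and summed to 35.6 to 39.6 CPM against 1690 to 1944 CPM. Myeloid genes were higher in 6 of 9 and lower in 2, with none at 0 throughout, and summed to 4605 to 4709 CPM against 5810 to 6157 CPM, most of which was *Lyz2* (means of 4492 and 5717 CPM). Of 5 platelet genes 1 was higher and 4 were at 0 (*Ppbp*, *Itga2b*, *Gp9* and *Gp1bb*), with sums of 154 to 167 CPM against 223 to 232 CPM. The cells were sorted on B220 to a stated purity above 98%, and the part of cells other than B cells in the members' values was not tested. T cell genes (9, of which 2 higher, 3 lower, and *Cd4* and *Cd8a* at 0) summed to 77.7 to 79.6 CPM in NSD1B WT and 76.3 to 79.8 CPM in NSD1B KO, and stromal genes (8, of which 1 lower and 5 at 0) to 74.2 to 80.6 CPM and 80.3 to 91.6 CPM. Plasma cell genes (6, of which 2 higher, 2 lower, and *Sdc1* and *Tnfrsf17* at 0) summed to 267 to 273 CPM and 230 to 231 CPM, NK cell genes (5, of which 1 higher, 1 lower and 3 at 0) to 2.87 to 3.64 CPM and 12.1 to 13.2 CPM, and dendritic cell genes (5, of which 1 higher and 4 at 0) to 0 and 3.86 to 5.003 CPM.

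*Actb* is often used as a reference gene, so it was set beside 12 other genes used in this way. In NSD1B KO, 4 of them were higher, 7 were lower and 1 was not called. *Gapdh* fell by 0.91, *B2m* rose by 0.60 and *Hprt* rose by 0.32 on the log2 scale. Scaling on *Hprt* moved the median log2 fold change of all tested genes from -0.10 to -0.42 and the share of higher genes among all called from 47.4% to 37.5%. The genes nearest to *Actb* in their pattern over the 4 libraries, among 612 of high level, were *Map3k1*, *Commd4* and *Jpt1*, at distances of 0.0592, 0.0818 and 0.0823 in centred log2 CPM.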

How the data were processed

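The data hold 1 count per gene for each of 4 libraries. The authors deposited whole-number counts that are not normalized, and the methods describe paired-end reads mapped to mm10 with Bowtie2. Which program counted the reads, whether by strand and with which annotation is not given in the sources used here. FPKM from Cufflinks, named in the methods, were not used here. Rows that name no gene were left out. Reads on no gene were 44.3% to 44.6% of the counted reads.

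Counts were scaled by TMM and tested with the quasi-likelihood test of edgeR 4.0.16 in R 4.3.3, after filterByExpr (minimum count 10, minimum total 15). A call needed a Benjamini-Hochberg adjusted p below 0.05 and a fold above 1.2. Positions and exons came from GENCODE M21 (GRCm38), which matched 55141 of 55401 identifiers, and promoters from RefSeq. For a gene at 0 in a genotype the limit was 3 counts over 2 libraries (0.208 CPM in NSD1B WT and 0.215 CPM in NSD1B KO), which covers counting error only. The script was tested on simulated data. Replicates of a genotype differed by more than counting error (mean chi-square per gene 2.99 in NSD1B WT and 3.86 in NSD1B KO).

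The members and lists were chosen with earlier results of these data known. Named genes were the members, *Nsd1*, in each role the tested gene of highest mean CPM and the called gene of largest change and a mean log2 CPM of 5 or more, the marker and reference genes, and the 3 genes nearest to *Actb* by Euclidean distance among those with a mean log2 CPM of 8 or more. For 1 role of the wider list, which its totals include, the values are not reported here, and neither is 1 marker gene. The other Arp2/3 subunits, *Srf*, *Mrtfb*, *Tpm4* and genes that share sequence with a member fall outside this rule and were named after their values were seen. Alternatives used DESeq2 1.42.0, limma-voom (limma 3.58.1), other scalings and filters, a loess trend with length and GC content (span 0.5, known for 99.9% of tested genes), a replicate block and each library left out.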

Additional observations from a re-analysis of the deposited data

How the results depend on the processing

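Over 17 alternatives, *Actb*, *Tmsb4x*, *Cfl1*, *Arpc2*, *Coro1a* and *Lcp1* kept their direction and their call. Scaling on *Hprt* nevertheless moved *Tmsb4x* to 0.31, *Lcp1* to -0.80, *Arpc2* to -0.95, *Tmsb10* to -0.88 and *Actg1* to -0.66, each by over 1.5 times. The members called higher were 1 instead of 2 with library size alone, with scaling on *Hprt* and with a test against the fold of 1.2 (glmTreat), since *Arpc3* was lost there (glmTreat adjusted p = 0.106). By adjusted p alone the higher members were 1 with scaling on *Hprt* and with glmTreat. *Actg1* was also lost with glmTreat (adjusted p = 0.0971). Members called lower were 5 with the trend of length and GC content removed, without *Actg1* and *Tmsb10*, and the cause was not tested. *Pfn1* was called lower with library size alone (-0.32), upper quartile scaling (-0.28), scaling on *Hprt* (-0.57) and a 1 CPM filter in every library (-0.28), and reversed with the trend removed (0.14, adjusted p = 0.0968 without and 0.0473 with the block). With libraries left out in turn, where the lone library of a genotype is assumed to vary like the others, *Pfn1* ranged from -0.32 to -0.15, *Actg1* from -0.47 to -0.21 and *Actb* from -1.17 to -1.07. The 1 CPM filter left 2855 genes called higher and 2991 lower, instead of 4324 and 4795, since fewer genes were tested.

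Other sign changes occurred in genes that were not called and in *Fmnl1*, which was called lower, and their cause was not tested. *Brk1* was at -0.0236 with library size alone and -0.27 with scaling on *Hprt*. *Myl6* was at -0.0444, -0.0035, -0.29 and -0.0047 with library size, upper quartile, *Hprt* scaling and the 1 CPM filter. With scaling on *Hprt* both *Brk1* and *Myl6* were called lower. *Capza2* was at -0.11 and *Tagln2* at -0.20 with scaling on *Hprt*. With the trend removed, without and with the block, *Capza2* was at -0.14 in both, *Arhgdib* at 0.0061 and 0.0059, and *Fmnl1* at 0.0614 and 0.0494. With libraries left out, *Myl6* ranged from -0.0158 to 0.0858 and *Arhgdib* from -0.13 to 0.0527.

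Libraries with the same replicate number share only that number by the labels. They deviated together with a correlation of 0.34 over 613 genes. With the replicate block, 4254 genes were called higher and 4706 lower, and no member changed its call. Depth does not limit the members, which all have over 1000 counts in every library, but 2 libraries per genotype limit every estimate of spread.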
